A study of Mus musculus with 48 samples.

Results

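The genes described here encode the enzymes and partner proteins that make, convert and hydrolyse phosphoinositides. These 53 genes were chosen by symbol, with earlier results of these data known. All were found among the 50600 genes of the deposited counts. They comprise phosphoinositide kinases and their regulatory subunits, phosphatases that remove single phosphates from the inositol ring, phospholipases C, the CDP-diacylglycerol synthases and a phosphatidylinositol transfer protein. They were measured in mPDAC cells, a mouse pancreatic ductal adenocarcinoma line labelled with the genetic background FVB/N x C57BL6 and an age of 8-week-old. In 3 cultures the cells received the nucleolin antagonist N6L, a multivalent pseudopeptide that binds nucleolin, at 50 µM for 48 h, and 3 cultures were non-treated (NT, Control in the labels). From each lysate, freed of nuclei and mitochondria, poly(A) RNA was sequenced from the cytoplasm and from the pooled polysomal fractions of a sucrose gradient, which gives 12 libraries in 4 groups of 3. All groups are cultures of 1 cell line, so that the spread between cultures is not that between animals or tumours.

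Phosphoinositides are phosphorylated forms of the membrane lipid phosphatidylinositol (PI). Kinases and phosphatases acting on positions 3, 4 and 5 of the inositol ring produce a set of lipids that mark different membranes: PI4P marks the Golgi and the plasma membrane, PI(4,5)P2 the plasma membrane, PI3P early endosomes and autophagosomes, and PI(3,5)P2 late endosomes and lysosomes. Class I PI 3-kinases make PI(3,4,5)P3 downstream of growth factor receptors, the lipid that recruits Akt, and this branch is among the signalling routes downstream of the oncogenic Ras found in most pancreatic ductal adenocarcinomas.

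The myotubularins, the Sac phosphatases and the inositol polyphosphate 4-phosphatases share a catalytic loop in which a cysteine is followed, after 5 other residues, by an arginine. The codons of this loop separate catalytic members from the inactive myotubularins, which keep the fold and bind active partners, and are shown because both kinds are described below. Each window has 27 bases of coding sequence, from the codon before the cysteine to the codon after the arginine, written on the coding strand from GENCODE vM21 transcripts (GRCm38), with the cysteine and arginine codons in capitals. In Mtmr9 and Mtmr12 the capitals mark the codons aligned to the same positions of Mtm1.
Mtm1: cacTGCagtgacggatgggacAGGacc
Mtmr1: cacTGCagtgatgggtgggatCGAaca
Mtmr2: cacTGCagtgatggatgggatCGCaca
Mtmr6: cacTGTtccgatgggtgggacAGGacc
Mtmr14: cacTGTatctcaggctgggacCGGacc
Mtmr9: catGGGacagaaggaactgatTCCaca
Mtmr12: ttgGAAgagaatgcttctgatCTCtgc
Inpp5f: aatTGCatggactgcctggatCGCacc
Sacm1l: aacTGCatggattgtctagacAGAacg
Synj1: aacTGCttggattgtctggatAGAaca
Inpp4a: agcTGCaagagtgccaaggacCGCaca
Inpp4b: tgcTGTaaaagtgccaaagacAGGaca

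All these windows are exonic and coding. The window of Mtm1 lies in exon 11 (chrX:71299634-71299660, plus strand), that of Mtmr9 in exon 7 (chr14:63529818-63529844, minus strand) and that of Mtmr12 is split between exons 12 and 13 (chr15:12261908-12263747, plus strand). The window of Inpp5f lies in exon 12 (chr7:128678046-128678072, plus strand), that of Synj1 in exon 10 (chr16:90978719-90978745, minus strand) and that of Inpp4b in exon 22 (chr8:82071714-82071740, plus strand). The active myotubularins have both codons, whereas Mtmr9 has glycine and serine codons and Mtmr12 glutamate and leucine codons at the aligned positions.

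The 12 libraries held 19519911 to 44972333 counts after summing 4 technical replicates each. For 3 technical replicates of the N6L cytoplasm of culture 2 the labels disagree on the culture. Their counts matched the remaining replicate of culture 2 within counting error (a chi-square of at most 1.04 for each degree of freedom, against at least 11.2 when set against culture 1), and without them 16 instead of 17 of the genes below passed in the cytoplasm. Of the ductal epithelial markers, 6 of 8 had a mean above 1 CPM (counts per 1000000, scaled between libraries by the TMM method), led by Krt8 and Krt18, and summed to 6427 to 10524 CPM per library, whereas Epcam and Cldn4 were near 0 (42 and 12 counts over all libraries). Fibroblast markers summed to at most 1.22 CPM, endothelial ones to at most 1.03 CPM and leukocyte ones to at most 3.71 CPM, and the 3 islet markers had no counts. Acinar markers summed to 27.8 to 82.8 CPM, of which only 1 of the 5 genes, Cela1, had a mean above 1 CPM. The transcript of nucleolin itself, Ncl, whose protein N6L binds, had 974, 1556 and 1477 CPM in NT cytoplasm and 1157, 1297 and 1261 CPM in N6L cytoplasm. In polysomes it had 885, 813 and 923 CPM without and 798, 478 and 231 CPM with N6L, with the lowest value in N6L culture 3.

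The 53 genes summed to 3252, 3292 and 2828 CPM in NT cytoplasm and to 3985, 3829 and 3801 CPM in N6L cytoplasm, where every library lay above every NT library. In polysomes they summed to 3246, 3550 and 3133 CPM without and to 3677, 3488 and 3713 CPM with N6L, where the groups overlapped. Per kilobase of transcript, the most abundant in NT cytoplasm was Pip4k2c, a kinase of PI5P, with 112 ± 20.2 CPM per kb (SD, n = 3), followed by the class I regulatory subunit gene Pik3r2 with 83.4 ± 3.42, the PI transfer protein gene Pitpna with 61.3 ± 12.1 and the PI 4-kinase gene Pi4k2b with 46.3 ± 7.47. The values of Pip4k2c and Pik3r2 differed by little more than the SD of the former. The best represented genes of the other classes were Vac14 (35.7), Mtmr14 (32.2), Pip5k1a (30.9), Plcb3 (25.4), Inppl1 (22.8), Sacm1l (13.9), Mtmr9 (9.95), Pik3c3 (7.92), Pik3ca (7.13), Pik3c2a (6.0), Cds2 (4.69), Inpp4b (2.42) and Inpp1 (1.74 CPM per kb). At the lower end, the delta catalytic subunit gene Pik3cd had 0.0602 CPM per kb. Plcb4, with 1 count in all libraries together, and Cds1, with 13, did not pass the filter on low counts and were not tested, which leaves 51 genes in a test over 13889.

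The question asked of the cytoplasm was which mRNAs changed in amount with N6L. Of the 51 tested genes, 17 rose and none fell at an adjusted p-value (FDR, edgeR quasi-likelihood test with Benjamini-Hochberg adjustment over all genes) under 0.05. The share that rose was 33.3%, against 14.5% of all tested genes, and 13.8% of all genes fell. The median log2 fold change of the 51 genes was 0.47 against 0.04 over all genes, with a range of -0.33 to 1.04, and 46 were above 0. In 35 genes (68.6%) every N6L culture lay above every NT culture, against 29.3% of all genes. The kinases and their subunits (20 genes) contributed 8 of the 17, the phosphatases and myotubularins (22 genes) 7, and the PIKfyve complex and the phospholipases C 1 each. In bulk RNA, more RNA per cell and more cells carrying a transcript cannot be told apart.

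**Figure D1:**
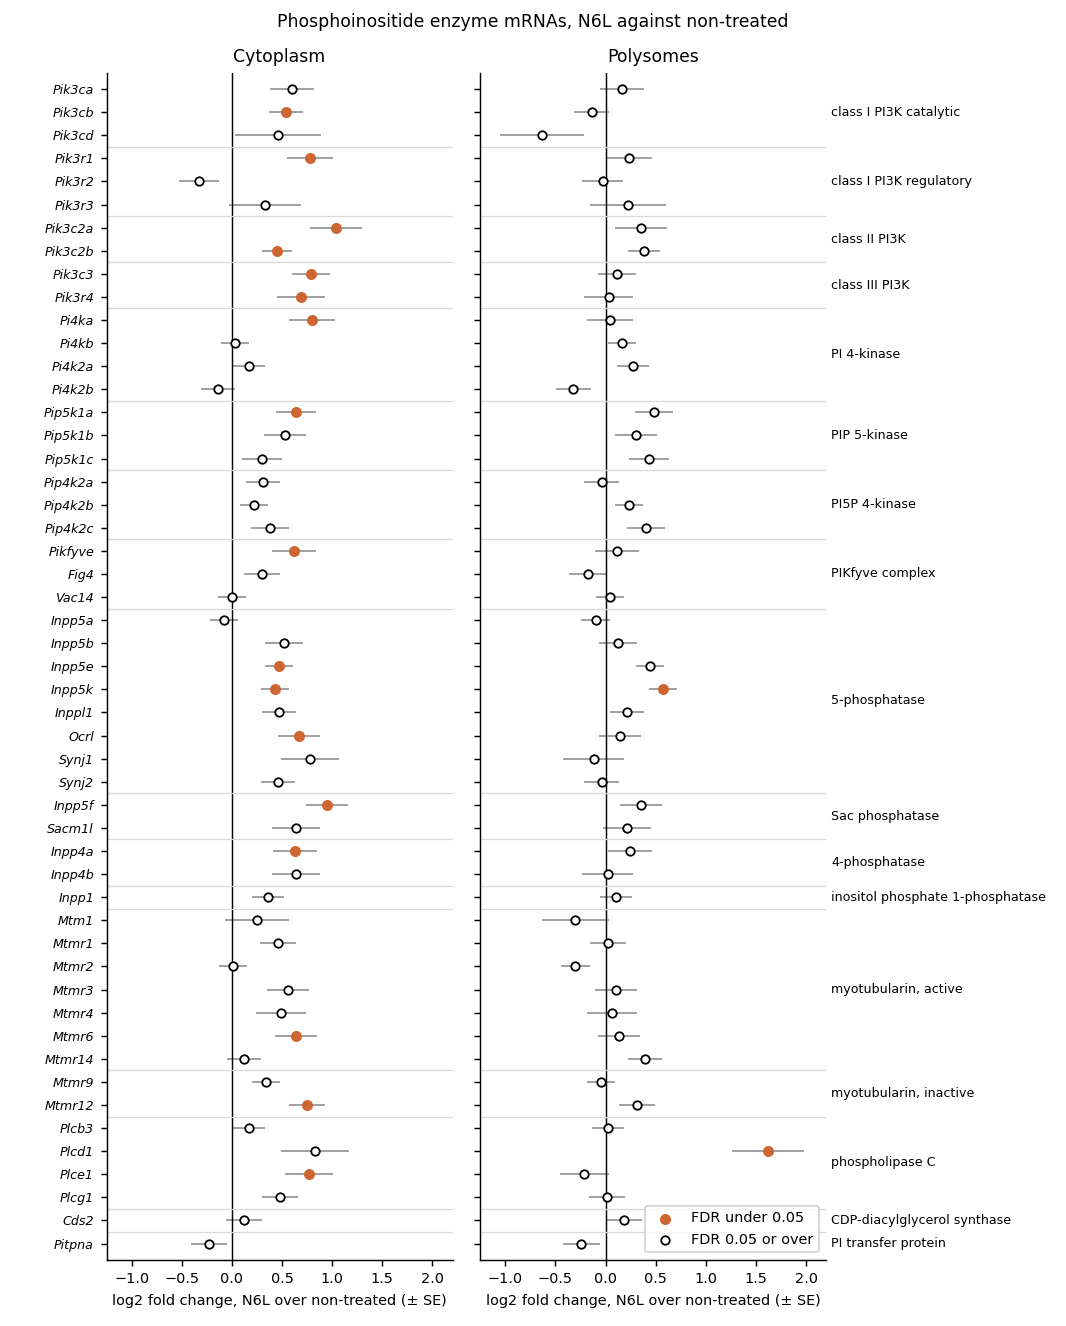
Log2 fold change of N6L over non-treated (horizontal axis, ± SE, 3 against 3 cultures) for the 51 tested genes, grouped by enzyme class, in the cytoplasm (left) and in polysomes (right). Filled points passed an FDR of 0.05: 17 in the cytoplasm, all to the right of 0, and 2 in polysomes.

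Among the PI 3-kinases, all 4 genes of class II and class III passed. Pik3c2a, a class II kinase of clathrin-mediated endocytosis, had 45.6, 59.4 and 39.8 CPM in NT cytoplasm and 75.7, 129 and 93.8 CPM in N6L cytoplasm. All 3 N6L values were above the NT values, with a log2 fold change of 1.04 ± 0.26 (SE, FDR = 0.0112), the largest of the 51 genes. Pik3c2b, its paralog, had 15.3, 13.0 and 12.3 CPM against 19.4, 18.7 and 17.4 CPM and rose by 0.45 ± 0.15 (FDR = 0.0436), a call kept in 1 of the 6 fits that left out a culture. Pik3c3, the class III kinase that makes the PI3P of endosomes and autophagosomes, went from 24.2, 29.4 and 23.8 CPM to 42.1, 47.0 and 44.3 CPM without overlap (0.79 ± 0.19, FDR = 0.0104). Pik3r4, the protein kinase-like subunit that anchors it, went from 16.8, 18.7 and 15.5 CPM to 26.5, 26.2 and 29.5 CPM (0.69 ± 0.24, FDR = 0.0458), kept in 2 of those 6 fits. With the offset for transcript length and GC content described below, Pik3c2b was at 0.05 (FDR = 0.759) and Pik3r4 at 0.42 (FDR = 0.15).

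The class I genes were divided. Pik3cb, the beta catalytic subunit, rose from 27.7, 31.3 and 27.0 CPM to 41.7, 44.1 and 39.6 CPM (0.54 ± 0.17, FDR = 0.0262), and the regulatory subunit gene Pik3r1 from 33.6, 30.2 and 23.8 CPM to 42.1, 57.6 and 50.6 CPM (0.78 ± 0.23, FDR = 0.0243). In both genes the groups did not overlap. With the length and GC offset Pik3cb was at 0.08 (FDR = 0.612) and Pik3r1 at 0.30 (FDR = 0.0727). Pik3ca, the alpha catalytic subunit, had a change of 0.60 ± 0.22, which missed the limit (FDR = 0.0512) although its groups did not overlap either. Pik3r2, the most abundant regulatory subunit, had the lowest change of all 51 genes, with 275, 253 and 264 CPM in NT and 228, 181 and 219 CPM in N6L cytoplasm (-0.33 ± 0.20, FDR = 0.218). Pik3cd and Pik3r3, at under 4 CPM in every library, had changes of 0.46 ± 0.43 and 0.33 ± 0.36 with overlapping groups.

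Of the 4 PI 4-kinases, only Pi4ka, the enzyme of the plasma membrane pool of PI4P, passed the limit. It had 34.6, 39.4 and 36.9 CPM in NT and 70.5, 58.3 and 64.6 CPM in N6L cytoplasm (0.80 ± 0.23, FDR = 0.0193). The Golgi and endosomal enzymes Pi4kb, Pi4k2a and Pi4k2b had changes of 0.03, 0.17 and -0.14, each with overlapping groups. Whether Pi4ka differed from its paralogs was not tested. Of the 3 kinases that make PI(4,5)P2 from PI4P, Pip5k1a rose from 133, 123 and 83.1 CPM to 185, 174 and 169 CPM (0.64 ± 0.20, FDR = 0.0269), and Pip5k1b and Pip5k1c, at 0.53 and 0.30, did not pass. None of the 3 PI5P 4-kinases passed, and their values ran from 0.22 to 0.38. In the PIKfyve complex, which makes PI(3,5)P2, the kinase gene Pikfyve rose from 20.4, 19.6 and 14.1 CPM to 25.2, 31.1 and 26.8 CPM (0.62 ± 0.22, FDR = 0.0492), whereas the phosphatase Fig4 had 0.30 and the scaffold Vac14 0.00 on the log2 scale. The Pikfyve call was kept in 2 of the 6 fits that left out a culture. With the length and GC offset Pikfyve was at 0.08 (FDR = 0.629).

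Among the 5-phosphatases, 3 of 8 rose. Ocrl, the endosomal PI(4,5)P2 phosphatase mutated in Lowe syndrome, had 19.7, 20.1 and 17.1 CPM against 30.0, 31.0 and 29.9 CPM (0.67 ± 0.21, FDR = 0.0279). Inpp5e, a phosphatase of primary cilia, had 37.7, 33.2 and 29.7 CPM against 48.8, 44.7 and 46.0 CPM (0.47 ± 0.14, FDR = 0.0240), and Inpp5k, found at the endoplasmic reticulum, 27.3, 25.1 and 24.2 CPM against 33.3, 35.1 and 34.9 CPM (0.43 ± 0.14, FDR = 0.0320). In each of the 3 the groups were apart. Inppl1, a PI(3,4,5)P3 phosphatase, missed the limit at 0.47 ± 0.17 (FDR = 0.0511). Inpp5b and the synaptojanins Synj1 and Synj2, which hydrolyse PI(4,5)P2 on endocytic vesicles, had 0.52, 0.78 and 0.46, all with FDR values between 0.0547 and 0.0610, and Inpp5a, which acts on soluble inositol trisphosphate, had -0.08.

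The Sac phosphatase gene Inpp5f, a PI4P phosphatase of endosomes, gave the smallest FDR of the 51 genes. Its NT cytoplasms had 18.8, 19.3 and 15.8 CPM and its N6L cytoplasms 30.0, 37.9 and 36.1 CPM, a difference of 0.95 ± 0.21 (FDR = 0.00724). Sacm1l, which hydrolyses PI4P at the endoplasmic reticulum, had 0.64 ± 0.24 (FDR = 0.0576). Of the 4-phosphatases of PI(3,4)P2, Inpp4a rose from 12.7, 12.3 and 8.51 CPM to 15.8, 18.2 and 17.9 CPM (0.63 ± 0.22, FDR = 0.0453), and Inpp4b had a change of nearly the same size, 0.64 ± 0.24, that did not pass (FDR = 0.0615).

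The myotubularins remove the phosphate at position 3 from PI3P and PI(3,5)P2. Of the 7 with the catalytic codons, 5 of which are shown above, Mtmr6 rose, from 49.4, 51.4 and 37.2 CPM to 64.8, 84.4 and 65.9 CPM (0.64 ± 0.21, FDR = 0.0382), and the others had values between 0.01 in Mtmr2 and 0.56 in Mtmr3. Of the 2 members without those codons, Mtmr12, a partner of Mtm1, rose from 54.6, 51.7 and 39.9 CPM to 75.3, 89.1 and 81.9 CPM without overlap (0.75 ± 0.18, FDR = 0.00893). Mtmr9, a partner of Mtmr6, had 0.34 ± 0.14 (FDR = 0.0880). Among the phospholipases C, which cleave PI(4,5)P2 into diacylglycerol and inositol trisphosphate, Plce1, an effector of Ras, rose from 73.5, 77.3 and 54.6 CPM to 107, 124 and 119 CPM (0.77 ± 0.24, FDR = 0.0293). Plcg1 and Plcb3, the enzymes downstream of receptor tyrosine kinases and of G proteins, had 0.48 and 0.17, and Plcd1, at under 1 CPM, 0.83 ± 0.34 (FDR = 0.0755). Inpp1, which acts on soluble inositol phosphates, Cds2, which makes the precursor for PI synthesis, and Pitpna had changes of 0.36, 0.12 and -0.23, and none passed.

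The number of calls in the cytoplasm depended on single cultures. When NT cultures 1, 2 or 4 were left out, 6, 8 and 2 of the 51 genes passed, against 16.0%, 22.4% and 15.5% of all genes in either direction. When N6L cultures 1, 2 or 3 were left out, 12, 1 and 21 passed, against 23.0%, 9.24% and 28.7% of all genes. The calls over all genes ranged from 1295 to 4042, and were 28.3% of genes with all cultures. Without NT culture 1, 2 or 4 or N6L culture 2, the share among the 51 genes was below that of all genes. Inpp5f passed in all 6 of these fits, Mtmr12 in 5 and Pik3c2a in 4, and Inpp4a in none. The direction did not depend on a culture: the median of the 51 genes stayed between 0.33 and 0.55.

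In polysomes the genes differed less between N6L and NT, again relative to the other mRNAs of each library. Only 2 of 51 passed, both higher, which is 3.92% against 6.01% of all genes, and none was lower against 3.66% of all genes. The median was 0.11 against 0.00 over all genes, and 37 genes were above 0. Inpp5k had 23.6, 28.6 and 27.7 CPM in NT and 37.9, 41.3 and 39.7 CPM in N6L polysomes (0.57 ± 0.14, FDR = 0.0217), so that its relative rise was present in both fractions. Plcd1, a calcium-sensitive phospholipase C, had 0.159, 0.328 and 0.271 CPM against 0.639, 0.767 and 1.06 CPM (1.62 ± 0.36, FDR = 0.0139), and its 201 counts over all libraries make this the least precisely measured of the calls. Neither gene passed without NT culture 1 (FDR = 0.130 for Inpp5k and 0.0766 for Plcd1) or without N6L culture 2 (FDR = 0.157 and 0.0831), and Plcd1 also missed the limit without N6L culture 3 (FDR = 0.0553).

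The next lowest p-values in polysomes belonged to Inpp5e (0.44 ± 0.14, FDR = 0.0640), Pip5k1a (0.48 ± 0.19, FDR = 0.130), Pik3c2b (0.38 ± 0.16, FDR = 0.139), Mtmr14 (0.39 ± 0.17, FDR = 0.149), Pip5k1c (0.43 ± 0.20, FDR = 0.178) and Mtmr2 (-0.30 ± 0.14, FDR = 0.185). Of the genes with the largest cytoplasmic changes, Pik3c2a had 33.1, 24.3 and 23.1 CPM in NT and 40.4, 40.2 and 21.7 CPM in N6L polysomes (0.35 ± 0.26, FDR = 0.423). Pi4ka had 34.6, 41.8 and 39.6 CPM against 57.5, 35.5 and 25.9 CPM (0.04 ± 0.23), and Plce1 61.8, 55.6 and 58.3 CPM against 66.6, 57.0 and 28.6 CPM (-0.21 ± 0.24). In these 3 genes N6L culture 3 had the lowest polysomal value of the N6L cultures and the groups overlapped.

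**Figure D2:**
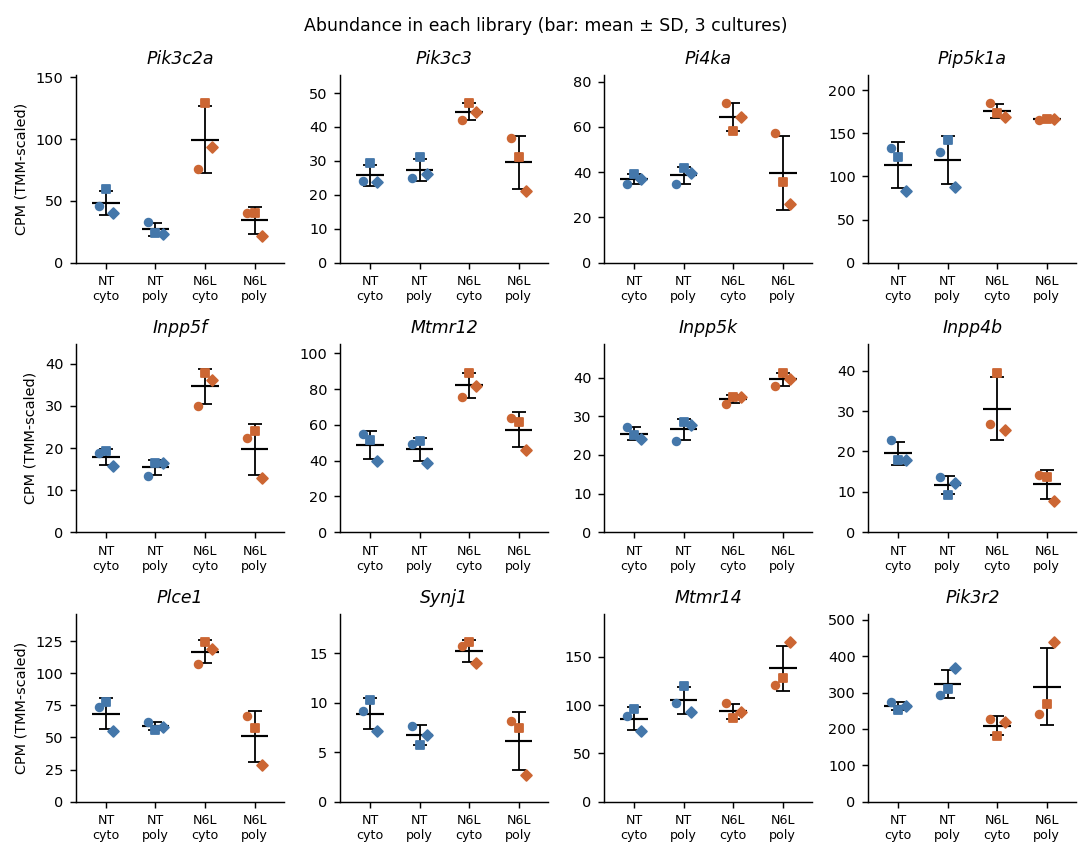
TMM-scaled CPM (vertical axes from 0) of 12 genes in each library, with circles, squares and diamonds for the lowest to the highest culture number of a treatment, blue for non-treated (NT), orange for N6L, and bars for the mean ± SD of 3 cultures. In Pik3c2a, Pi4ka, Inpp5f, Plce1 and Synj1 the N6L cytoplasm stood above the other 3 groups, in Inpp5k both N6L groups stood above both NT groups, and in Pik3r2 the N6L cytoplasm was the lowest group.

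The polysome-to-cytoplasm comparison asks how much of each mRNA sediments with several ribosomes, relative to other mRNAs of the same libraries. It shares its cytoplasmic libraries with the comparison of the cytoplasms, so that the values are given side by side and not as separate evidence. In NT cells none of the 51 genes passed in edgeR or DESeq2, against 0.209% of all genes, the smallest FDR was 0.190 in edgeR, and 3 (5.88%) had an unadjusted p-value under 0.05, against 13.4% of all genes. The median was 0.01 against 0.03 over all genes. The lowest p-values belonged to Pik3c2a (-0.85 ± 0.26, FDR = 0.190), Inpp4b (-0.74 ± 0.25, FDR = 0.224), Pik3ca (-0.51 ± 0.22, FDR = 0.336), Pik3r1 (-0.48 ± 0.23), Pikfyve (-0.46 ± 0.22), Sacm1l (-0.47 ± 0.24), Pik3cd (0.82 ± 0.43) and Mtmr9 (0.27 ± 0.14). Pik3c2a, Inpp4b and Pik3ca had lower CPM in each NT polysome library than in any NT cytoplasm library.

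In N6L cells, 20 of the 51 genes were lower and 2 higher in polysomes than in cytoplasm. The share of lower genes was 39.2% against 20.6% of all genes, and that of higher genes 3.92% against 18.4%. The median log2 ratio was -0.34 against 0.03 over all genes, and 38 genes were below 0. In 29 genes (56.9%) every N6L polysome lay below every N6L cytoplasm, against 28.5% of all genes. The cytoplasm and the polysomes of a culture come from 1 lysate, and with the culture as a block 27 genes (52.9%) were lower, against 27.6% of all genes. With this block 4 genes were higher, for which no share over all genes is given. All 22 calls were kept, and Inpp1, Mtmr2, Mtmr4, Pi4k2b, Pi4kb, Pik3r3, Pik3r4, Pitpna and Plcg1 were added.

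By the fitted change, the N6L ratio was lowest in Pik3c2a. Its ratios per culture, as the log2 of polysome over cytoplasm CPM, were -0.91, -1.68 and -2.11 in N6L cultures 1, 2 and 3 and -0.46, -1.28 and -0.78 in NT cultures 1, 2 and 4. The CPM of this mRNA was lower in the N6L polysomes than in the N6L cytoplasm of every culture (fitted change -1.54 ± 0.26, FDR = 0.00427). The ratios of the treatments overlapped. Inpp4b had ratios of -0.91, -1.53 and -1.70 with N6L and -0.74, -0.93 and -0.56 without (-1.36 ± 0.25, FDR = 0.00430). Synj1 had -0.93, -1.11 and -2.33 with N6L and -0.25, -0.85 and -0.09 without (-1.31 ± 0.30, FDR = 0.00676), and Plce1 -0.69, -1.12 and -2.06 with and -0.25, -0.48 and 0.09 without (-1.20 ± 0.24, FDR = 0.00501). In Synj1 and Plce1 every N6L ratio was below every NT ratio, in Inpp4b culture 1 of N6L lay just inside the NT range.

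The remaining genes lower in N6L polysomes were kinases, their subunits and phosphatases. The class I genes Pik3r1 (-1.03), Pik3ca (-0.96) and Pik3cb (-0.57), the class III kinase Pik3c3 (-0.59), Pikfyve (-0.96), Pi4ka (-0.70) and the PI5P 4-kinase Pip4k2a (-0.45) were among them. The phosphatases were Mtm1 (-0.99), Sacm1l (-0.89), Inpp5f (-0.81), Mtmr1 (-0.67), Ocrl (-0.65), Inpp4a (-0.65), Mtmr6 (-0.62), Synj2 (-0.58) and the inactive Mtmr12 (-0.52). Their FDR values ran from 0.00676 to 0.0499. The 2 genes that were higher were Pik3r2, with ratios of 0.08, 0.56 and 1.00 (0.59 ± 0.20, FDR = 0.0321), and Mtmr14, with 0.25, 0.56 and 0.84 (0.56 ± 0.17, FDR = 0.0187). Scaling to library size alone, which moved the median of all genes to -0.11, left Pik3r2 at 0.44 and Mtmr14 at 0.42, above 0 but past the limit in neither (FDR = 0.0604 and 0.0683). Omitting N6L culture 3 left them at 0.32 and 0.40 (FDR = 0.229 and 0.153).

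**Figure D3:**
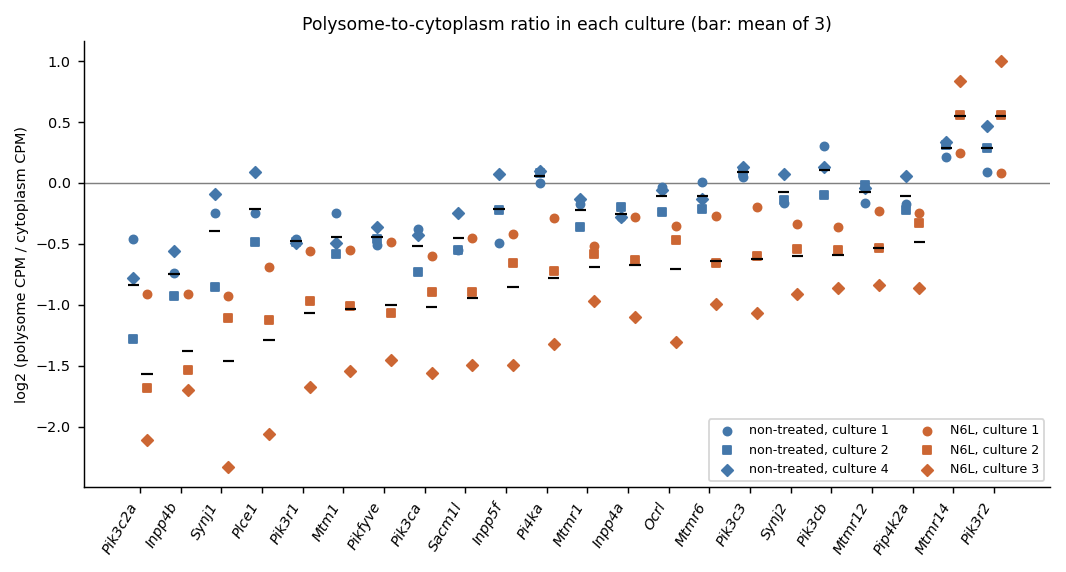
Log2 ratio of polysome over cytoplasm CPM (vertical axis) in each culture, for the 22 genes that passed in N6L cells, ordered by their fitted change, with blue points for non-treated and orange points for N6L cultures. N6L culture 3 (orange diamonds) had the most extreme ratio of the N6L cultures in each of the 22 genes, down to -2.33 in Synj1 and up to 1.00 in Pik3r2.

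The N6L cultures were not alike in this measure. The median ratio over the 51 genes was -0.23, -0.31 and -0.51 in N6L cultures 1, 2 and 3 and -0.11, 0.01 and 0.07 in NT cultures 1, 2 and 4, while the medians over all genes lay between -0.02 and 0.06 in the 6 cultures. Culture 3 also had the lowest Ncl value in polysomes, as given above, and the part of this culture's state in the result was not tested. Leaving out N6L culture 2 left 5 calls and leaving out culture 3 left 7, against 18 to 22 when any other culture was omitted. Calls over all genes fell in the same fits, from 39.0% to 8.22% and 11.7%. Inpp4b, Pik3c2a, Pik3r1, Plce1 and Synj1 passed in all of these fits.

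The translational index, the difference between the N6L and the NT log2 ratios, asks whether the engagement with polysomes itself changed. None of the 51 genes passed, nor did any of all 13889 genes (0%), with a smallest FDR of 0.555 in edgeR. An unadjusted p-value under 0.05 was reached by 4 of the 51 genes in edgeR (7.84%, against 7.73% of all genes), by 19 with the culture as a block (37.3% against 21.6%) and by 5 in DESeq2 (9.80% against 8.88%), and none of the 51 passed in those fits either. The median index was -0.39 against 0.01 over all genes, and 40 genes were below 0. In 21 genes (41.2%) every N6L ratio was below every NT ratio, against 14.4% of all genes. Leaving out N6L culture 3 brought the median to -0.24, and leaving out N6L culture 1 to -0.46.

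The 8 lowest p-values for the index belonged to Pik3cb (-0.68 ± 0.23), Plce1 (-0.98 ± 0.34), Pik3c3 (-0.67 ± 0.27), Pi4ka (-0.77 ± 0.32), Synj1 (-0.90 ± 0.42), Synj2 (-0.50 ± 0.24), Inpp5f (-0.60 ± 0.30) and Pik3r4 (-0.66 ± 0.34), all with an FDR of 0.555. Pi4ka had ratios of -0.29, -0.72 and -1.32 with N6L and 0.00, 0.08 and 0.10 without. Pik3c3 had -0.20, -0.60 and -1.07 with and 0.05, 0.08 and 0.13 without, and Pik3cb -0.36, -0.55 and -0.86 with and 0.30, -0.10 and 0.13 without. In these 3 genes the NT ratios lay between -0.10 and 0.30 and the N6L ratios were all negative, without overlap. The catalytically inactive Mtmr12 had -0.23, -0.53 and -0.84 with N6L and -0.16, -0.02 and -0.04 without, with no overlap. Its partner Mtm1 had -0.55, -1.01 and -1.54 with and -0.25, -0.58 and -0.49 without, with overlap in culture 1.

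The direction of change went with transcript length and GC content in these genes as in all genes. The median transcript of the 51 genes had 4640 nucleotides, against 2808 over the 13867 tested genes with an annotated transcript, and a GC content of 49.9% against 50.3%. Across the 51 genes, which share libraries and are not independent, the Spearman correlation of length was 0.448 with the cytoplasmic change, -0.61 with the N6L polysome-to-cytoplasm change and -0.518 with the index, and over all genes it was 0.508, -0.63 and -0.544. The correlation of GC content with the N6L polysome-to-cytoplasm change was 0.737 across the 51 genes and 0.546 over all genes. When all genes were divided by length into 5 bins of equal size, the bin of the longest transcripts (from 4742 nucleotides) held 24 of the 51, whose median cytoplasmic change was 0.58 against 0.46 for all genes of that bin, and whose N6L polysome-to-cytoplasm change was -0.61 against -0.70. In the bin from 3326 to 4741 nucleotides, which held 15 of them, the medians were 0.31 against 0.23 in the cytoplasm and -0.28 against -0.25 for the ratio. In the bin from 2331 to 3324 nucleotides, which held 12 of them, the medians were 0.32 against 0.06 in the cytoplasm and 0.12 against 0.05 for the ratio.

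**Figure D4:**
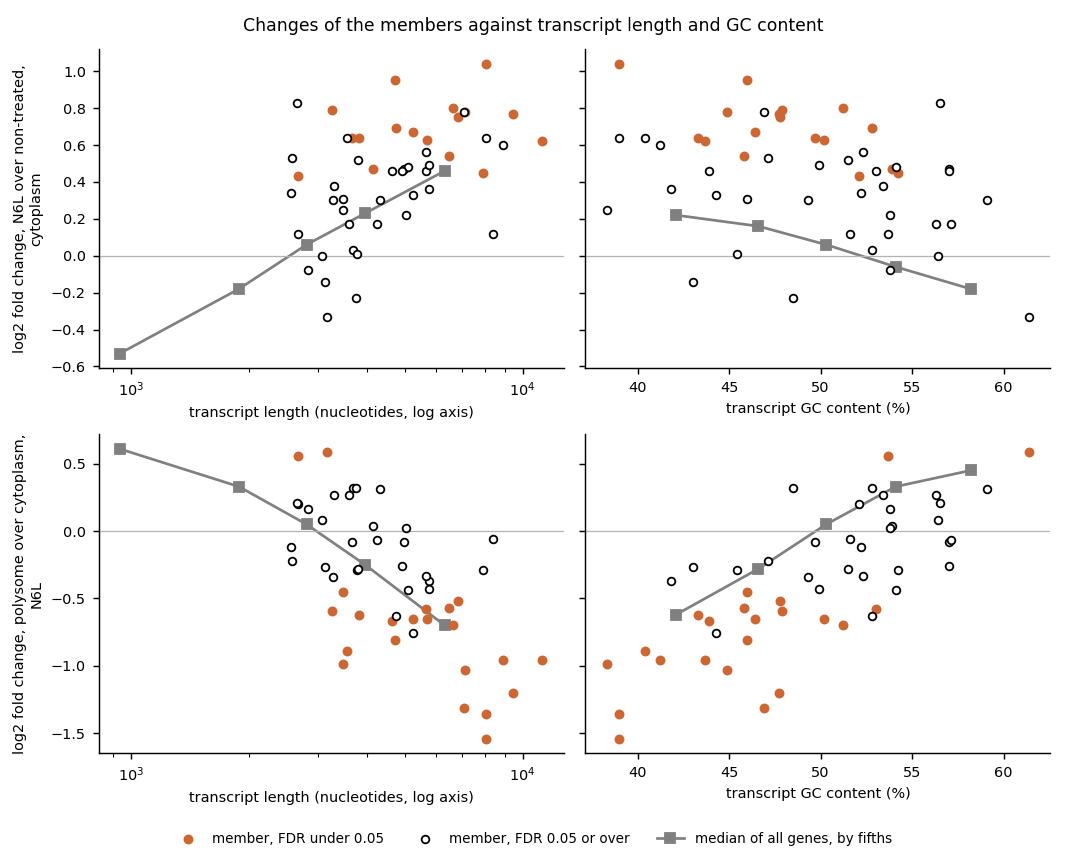
Log2 change of the 51 genes against transcript length (left, log axis) and GC content (right), for N6L over non-treated in the cytoplasm (top) and polysome over cytoplasm in N6L cells (bottom), with filled points past an FDR of 0.05 and grey squares for the medians of all genes in 5 bins. In the cytoplasm most points lie on or above the all-gene medians of their length. In the lower panels the points fall with length near those medians. They also rise with GC content, but their median lay below that of all genes in each GC bin. It was -0.89 against -0.62 in the bin of lowest GC content and 0.15 against 0.45 in the highest.

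With an offset per library for the smooth trends of all genes in length and GC content, the cytoplasmic median of the 51 genes was 0.19, and 11 genes rose (21.6%, against 14.2% of all genes) while Cds2 fell (-0.35, FDR = 0.0479). Of the 17 calls, Inpp5e, Inpp5f, Inpp5k, Mtmr12, Mtmr6, Pik3c2a, Pik3c3 and Pip5k1a remained, and Plcd1, Pip5k1b and Sacm1l were added. For N6L against NT polysomes the offset kept Inpp5k and Plcd1. It added Pik3c2a (0.44, FDR = 0.038) and Mtmr12 (0.34, FDR = 0.0359) as higher and Mtmr2 (-0.32, FDR = 0.0354) as lower. No share over all genes is given for these polysome calls. With the same offset the N6L polysome-to-cytoplasm median was -0.09, and 2 genes, Pik3c3 (-0.45) and Synj1 (-0.61), were lower (3.92%, against 8.60% of all genes), with Cds2 higher (0.52, FDR = 0.0144). The index median was -0.11. Pik3ca, Pikfyve, Pik3cb and Mtmr12, lower in N6L polysomes without the offset, had values of 0.15, 0.14, 0.19 and 0.18 with it.

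Related genes outside the 53 gave the following counts. Over all tested genes, 14.5% rose and 13.8% fell in N6L cytoplasm, and 6.01% rose and 3.66% fell in N6L polysomes. In N6L polysomes relative to N6L cytoplasm, 20.6% of all genes were lower and 18.4% higher. Whether these lists differed from all genes was not tested. Of 23 other tested phosphoinositide enzymes, 4 rose and 2 fell in N6L cytoplasm, 2 rose in N6L polysomes, and 7 were lower and 3 higher in N6L polysomes than in N6L cytoplasm. Those that rose in the cytoplasm were the class II kinase Pik3c2g (1.70 ± 0.27), the phospholipases Plcb1 (1.81 ± 0.45) and Plch1 (0.90 ± 0.30) and the inactive myotubularin Sbf2 (0.73 ± 0.24), and those that fell were the PI synthase Cdipt (-0.51 ± 0.16) and the PI transfer protein Pitpnb (-0.38 ± 0.13). In polysomes the inactive myotubularin Mtmr11 (0.48 ± 0.14) and the PI(4,5)P2 4-phosphatase Pip4p1 (0.57 ± 0.17) rose. Pik3c2g (-1.29), Plcb1 (-1.76), Plch1 (-1.38), Sbf2 (-0.97), Pitpnc1 (-0.79) and Mtmr10 (-0.62) were among those lower in N6L polysomes than in N6L cytoplasm, while Cdipt (0.63), Pip4p1 (0.58) and Mtmr11 (0.41) were higher. Of 17 genes of inositol phosphate metabolism and its receptors, 4 rose in the cytoplasm, the trisphosphate kinases Itpkb (0.63) and Itpkc (0.57), the receptor Itpr1 (0.94) and Ppip5k1 (0.73), and the monophosphatase Impa2 fell (-0.60). In polysomes Itpkc (0.64) and Ip6k1 (0.65) rose. In N6L polysomes relative to cytoplasm 5 of the 17 were lower, the receptors Itpr1 (-1.19), Itpr2 (-1.50) and Itpr3 (-0.75) and the kinases Ppip5k1 (-0.60) and Ppip5k2 (-1.62), and Impa2 (0.66) was higher.

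Of 16 genes that act upstream of or bind PI(3,4,5)P3 signalling, 6 rose and none fell in the cytoplasm. Over all genes 14.5% rose and 13.8% fell. The median was 0.67 against 0.04 over all genes. They were the adaptors Pik3ap1 (2.33 ± 0.33), Gab1 (1.27 ± 0.32) and Irs2 (1.07 ± 0.34), the kinases Sgk1 (1.07 ± 0.17) and Pdpk1 (0.96 ± 0.28) and the mTORC2 subunit Rictor (0.96 ± 0.30). Pik3ap1, Gab1 and Sgk1 also rose in polysomes, by 1.38, 1.11 and 0.82. In the N6L polysome-to-cytoplasm comparison Akt1 (0.57) and Akt2 (0.50) were higher, and Irs1 (-0.93), Irs2 (-0.88), Rictor (-1.42) and the Akt phosphatase gene Phlpp2 (-0.68) were lower. Of 19 proteins with lipid-binding domains for PI3P and related lipids, 5 rose in the cytoplasm, Zfyve1 (1.15), Wdfy3 (0.95), Atg14 (0.80), Wipi1 (0.71) and Uvrag (0.64), which are known from autophagy, and Snx3 fell (-0.60). Zfyve1 alone also rose in polysomes (0.90). In N6L polysomes relative to cytoplasm, the early endosomal tether Eea1 (-1.78), Wdfy3 (-1.49), Zfyve16 (-1.44), Zfyve26 (-0.85) and Zfyve9 (-0.70) were lower and Snx3 (0.42) higher. No gene of these 4 lists passed for the index.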

How the data were processed

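Counts per gene were deposited by the authors for 48 technical replicates of 12 libraries (3 NT and 3 N6L cultures, cytoplasm and polysomes). The submitters' processing notes name bcl2fastq 2.18.0.12, STAR, HTSeq 0.5.3 and the build mm10; for strand setting, annotation release and multi-mapping reads the sources used here give nothing. Technical replicates (chi-square per degree of freedom 1.02 to 1.04) were summed. After filterByExpr, 13889 of 50600 genes were fitted in edgeR 4.0.16 (R 4.3.3) by the quasi-likelihood test, with TMM factors, 1 mean per group of 4 and all 12 libraries, and p-values were adjusted over all genes. Ratios per culture used a prior count of 2. With 3 cultures a group, at a biological coefficient of variation of 0.197, the spread between cultures limited precision, and for genes of few counts (Plcd1, Pik3cd) counting error did too. The p-values measure only the spread between these cultures. Fractions of 1 culture come from 1 lysate (correlation of deviations 0.0368 to 0.645), so that the culture block was also fitted. Named were members past the FDR limit or, where fewer than 8 passed, the 8 with the lowest p, the most abundant member of each class, untested members and those whose codons are shown. Members and gene lists were chosen with earlier results of these data known. Alternatives were RLE factors, library size alone, other count filters, DESeq2 1.42.0, fewer libraries, blocks and an offset from a natural spline (5 df) of length and GC content. Transcripts came from GENCODE vM21, which held 50376 of the genes. Some items are not reported here.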

Additional observations from a re-analysis of the deposited data

How the results depend on the processing

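The cytoplasmic rise kept its direction under all alternatives, with a median between 0.19 (length and GC offset) and 0.61 (library size alone, which moved the median of all genes from 0.04 to 0.19), and between 0.33 and 0.55 with 1 culture left out. Calls in the cytoplasm numbered 28 with library size alone, all higher, and 26 with the replicate number as a block, all higher. With only the groups compared the calls numbered 28, of which 27 were higher and 1 was lower. With 1 culture left out they numbered 1 to 21, where 9.24% to 28.7% of all genes passed. Where no share over all genes is given here or above, the counts describe the 51 genes alone. In polysomes 1 gene passed without a filter on low counts, with at least 10 counts in every library or with technical replicate a alone, 0 with only the groups compared, 5 with the length and GC offset and 0 to 2 with 1 culture left out. In NT cells 2 genes (Pik3c2a and Inpp4b) were lower in polysomes without the filter. In N6L cells the polysome-to-cytoplasm calls numbered 3 with the length and GC offset, 13 with this offset and the culture block, and 5 to 22 with 1 culture left out, and the median was -0.09 with either offset and -0.48 to -0.28 with 1 culture left out. The median index was -0.11 with the offset, -0.13 with offset and block, and -0.46 to -0.24 with 1 culture left out. With the offset, alone or with the block, Pik3ca reversed to 0.02 in NT and 0.15 in N6L cells, and in N6L cells Pikfyve reversed to 0.14, Pik3cb to 0.19 and Mtmr12 to 0.18. The causes of these differences were not tested. NT and N6L cultures share only the numbers 1 and 2, whose deviations correlated at 0.228 and 0.0455 in the cytoplasm, so that the number block pairs no samples by design. The culture block gave no call in NT cells or for the index. Among the single genes, 847 values kept direction and side of the limit, 171 lost the limit, 5 gained it and 10 reversed.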
